A study of Homo sapiens with 3 samples.

Results

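The genes described here encode the protein core of the spliceosome and of related RNA particles: the small nuclear ribonucleoprotein (snRNP) proteins, the SF3A and SF3B complexes, the U2AF factors, the PRPF (pre-mRNA processing factor) proteins and the LSm (Sm-like) proteins. They were taken by name, as every gene whose symbol begins with SNRPA to SNRPG or with SNRNP, SF3A, SF3B, PRPF or LSM followed by a digit, or with U2AF. The rule found 62 probe sets for 55 genes among 18417 measured genes, of which 54 are annotated as protein-coding and 1, SNRPD2P2, as a pseudogene. All 55 are called core splicing genes below for short, although some act in histone mRNA processing or in the cytoplasm rather than in splicing. Their transcript levels were measured in exponentially growing, untreated C33A cells, a human cervical carcinoma line. Each of 3 independent cultures was hybridised to its own Affymetrix human Gene ST array, so the data hold 1 condition with n = 3 cultures and no contrast. Levels are log2 intensities, on which a step of 1 is a doubling of signal, and errors are SD over the 3 arrays. No test was made. The signal of a probe set depends on its sequence as well as on the amount of transcript, so the order of levels between genes is approximate.

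Splicing removes introns from precursor mRNA. In the major pathway, U1 snRNP recognises the start of the intron, the U2AF factors and U2 snRNP recognise its end and its branch point, and the U4/U6.U5 tri-snRNP then joins to form the catalytic machine. A minor pathway uses U11, U12, U4atac and U6atac with the shared U5. Each snRNP except U6 and U6atac carries a ring of Sm proteins on its RNA, whereas a ring of LSm proteins holds U6. A related LSm ring works in cytoplasmic mRNA decay. The U7 snRNP, which processes histone mRNA, has a mixed ring in which LSM10 and LSM11 take the place of a pair of Sm proteins. The label of the line was set against lineage markers: 2 of 7 epithelial markers lay above the level of silent gene families defined below, KRT18 at 7.75 ± 0.106 and KRT14 at 6.86 ± 0.080, whereas KRT8 (5.75), CDH1 (4.95) and EPCAM (4.52) lay below it. Of the other lineages, 1 of 4 leukocyte markers (PTPRC, 8.82 ± 0.111), 1 of 5 fibroblast markers (COL1A1, 7.24 ± 0.142) and 0 of 5 endothelial markers lay above it. KRT18, KRT14 and COL1A1 lay below the stricter silent-family bound of 7.88, also given below, whereas PTPRC lay above that bound. The epithelial markers were therefore not above the highest silent-family genes, and the label of the line rests on its source.

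Promoter sequence was not used in the choice by name. RefSeq promoter windows (GRCh38.p14, 250 bases before to 50 bases after each annotated start) were at hand for 46 of the 55 genes and for 14239 measured genes. Some genes had more than 1 window, among them 6 of the 46. In every set of genes, a gene counted as holding a motif if any of its windows held it. The sequences printed below are of 1 window per gene. The core of the ETS binding motif, CCGGAAG on either strand, was present in the windows of 20 of the 46 genes (43.5%), against 26.5% of the 5189 such genes in the top level class (the highest of 3 equal classes of all genes by level) and 16.8% of all measured genes. ETS factors, among them GABPA and ELK1, bind such sequences near the starts of many housekeeping genes. The 150 bases before the start are shown for 8 of these genes, chosen to cover the Sm ring and the U2, U2AF and U5 components, and for PRPF8, a gene of very high level whose window held no match to this core. Capitals mark the ETS core, which reads CCGGAAG where it lies on the strand of the gene and CTTCCGG where it lies on the other, and each line runs 5′ to 3′ to the last base before the start.
SNRPB: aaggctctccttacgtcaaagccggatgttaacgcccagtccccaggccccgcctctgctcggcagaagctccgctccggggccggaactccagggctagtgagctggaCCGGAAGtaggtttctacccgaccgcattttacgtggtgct
SNRPD2: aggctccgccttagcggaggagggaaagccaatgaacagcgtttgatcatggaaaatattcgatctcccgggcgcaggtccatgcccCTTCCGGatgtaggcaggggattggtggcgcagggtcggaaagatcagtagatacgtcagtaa
SNRPB2: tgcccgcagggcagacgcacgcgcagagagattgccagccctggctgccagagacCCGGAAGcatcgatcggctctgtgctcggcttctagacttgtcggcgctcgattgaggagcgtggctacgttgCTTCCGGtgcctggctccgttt
SF3A1: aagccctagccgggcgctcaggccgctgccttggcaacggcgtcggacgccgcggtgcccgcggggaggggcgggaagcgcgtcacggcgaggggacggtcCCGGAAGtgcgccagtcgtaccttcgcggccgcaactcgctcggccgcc
SF3B2: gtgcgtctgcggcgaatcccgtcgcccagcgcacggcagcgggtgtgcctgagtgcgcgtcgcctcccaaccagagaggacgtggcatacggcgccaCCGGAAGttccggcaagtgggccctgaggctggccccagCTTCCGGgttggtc
U2AF2: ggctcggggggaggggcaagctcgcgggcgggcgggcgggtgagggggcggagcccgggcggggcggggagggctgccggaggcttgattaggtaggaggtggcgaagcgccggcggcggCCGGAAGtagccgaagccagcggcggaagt
SNRNP200: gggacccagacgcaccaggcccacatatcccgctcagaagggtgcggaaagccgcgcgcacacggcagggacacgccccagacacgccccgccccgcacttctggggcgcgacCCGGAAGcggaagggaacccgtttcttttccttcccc
SNRPA1: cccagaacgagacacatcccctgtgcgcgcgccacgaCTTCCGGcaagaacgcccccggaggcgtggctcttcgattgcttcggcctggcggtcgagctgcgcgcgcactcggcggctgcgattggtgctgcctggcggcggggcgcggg
PRPF8: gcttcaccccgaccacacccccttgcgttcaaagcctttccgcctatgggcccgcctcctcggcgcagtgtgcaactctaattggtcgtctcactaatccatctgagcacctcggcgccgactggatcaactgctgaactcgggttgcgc
On GRCh38.p14 these stretches are chr20:2470790-2470939 (minus strand) for SNRPB, chr19:45692317-45692466 (minus) for SNRPD2, chr20:16729876-16730025 (plus) for SNRPB2, chr22:30356895-30357044 (minus) for SF3A1 and chr11:66052214-66052363 (plus) for SF3B2. They are chr19:55654885-55655034 (plus) for U2AF2, chr2:96305547-96305696 (minus) for SNRNP200, chr15:101295249-101295398 (minus) for SNRPA1 and chr17:1684868-1685017 (minus) for PRPF8. The core began 41 bases before the start in SNRPB, 49 in SF3A1, 30 in U2AF2 and 37 in SNRNP200. In SNRPB2 it occurred on the gene strand 95 bases and on the other strand 22 bases before the start, and in SF3B2 53 and 14 bases before it. SNRPD2 and SNRPA1 had it on the other strand only, 63 and 113 bases before the start.

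Across the windows of the 46 genes there were 30 matches to the ETS core, of which 20 began between 100 bases before and 50 bases after the start. The genes with and without a match had similar levels, with medians of 9.93 and 10.07. Of the other motifs, the YY1 motif AAGATGGCG occurred in 4 genes (8.70%, against 6.44% of the top level class and 3.36% of all measured genes). The E2F site, searched as TTTCCCGC, TTTGGCGC, TTTCGCGC and TTTGCCGC, occurred in 3 genes, SF3B1, LSM3 and SNRPB (6.52%, against 7.67% and 5.51%). The GC box GGGCGG, which Sp1 binds, occurred in 30 genes (65.2%, against 79.8% and 65.9%) and the NF-Y box CCAAT in 20 (43.5%, against 43.8% and 42.2%). The E-box CACGTG occurred in 2 genes (4.35%, against 14.1% and 10.9%), the TATAAA box in 1 (2.17%, against 7.13% and 11.9%) and the NRF1 motif, a palindrome searched without mismatch, in 1 (2.17%, against 3.39% and 2.05%). All motifs were searched on both strands, and a GC-rich letter string can be part of more than one motif. A match describes letters in a window and was not measured as binding.

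**Figure D1:**
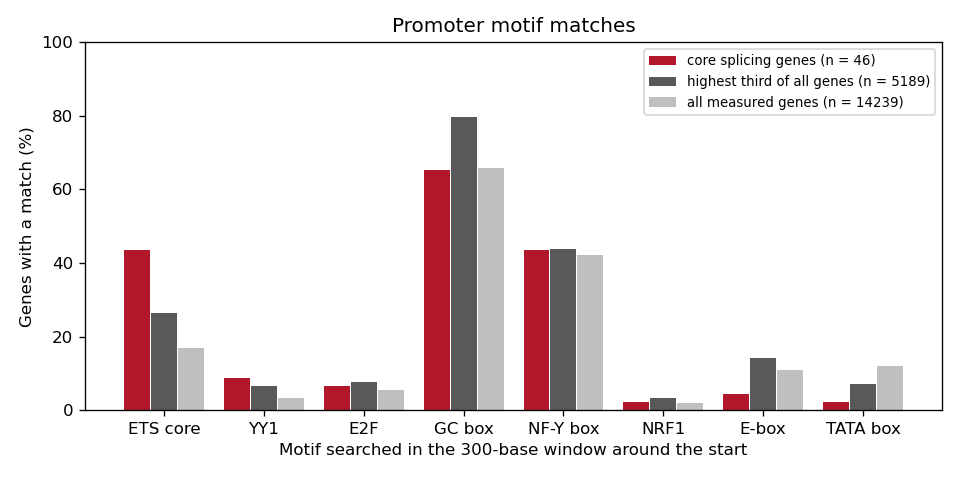
Percentage of genes (y axis) whose RefSeq promoter window holds each of 8 motifs (x axis) among the core splicing genes (n = 46), the top level class of all genes (n = 5189) and all measured genes (n = 14239). The ETS core stands at 43.5% of the core splicing genes, against 26.5% and 16.8%.

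The starts of 20 of the 46 genes (43.5%) lay within 1000 bases of the start of a neighbour transcribed in the opposite direction, against 32.0% of the top level class and 23.0% of all measured genes. PRPF4, a U4/U6 protein, had a level of 11.02 and shared such a region of 86 bases with CDC26, a subunit of the anaphase-promoting complex (7.88). PRPF38A (10.48) lay 179 bases from ORC1, a subunit of the origin recognition complex (8.77), and LSM3 (9.48) lay 216 bases from XPC, a DNA damage sensor (8.25). SNRNP25 (10.20) and POLR3K, an RNA polymerase III subunit (10.06), were 220 bases apart. Of 13 such pairs with both genes measured, the neighbour was lower in 10 and higher in 3. The 3 were U2AF1L4, a paralogue of U2AF1 (7.98), beside PSENEN, a gamma-secretase subunit (10.24), LSM5 (7.47) beside AVL9 (8.33) and SF3A2 (9.45) beside PLEKHJ1 (9.72). The core splicing genes had a median percentile of 89.96 among all genes, so most genes of any kind lie below them. The share of lower neighbours over all divergent pairs was not computed, so these counts are not a trait of the pairs. Chromosome 19 held 10 of the 55 genes (18.2%), against 7.11% of all measured genes.

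As a group the core splicing genes lay high in the C33A transcriptome. Their median level was 9.82 (quartiles 8.61 and 10.60), against 6.91 (5.18 and 8.68) over all genes, a difference of 2.91 on the log2 scale or 7.52-fold in intensity. When all genes were divided into 10 equal classes by mean level, 27 of the 55 (49.1%) fell in the highest decile, which begins at 9.83, against 10% of all genes by construction. The top level class, from 8.14 upwards, held 44 (80%, against 33.33%), the middle class 10 and the lowest 1. To mark the level of unexpressed genes, the 95th percentile of 456 genes of families silent in most tissues (olfactory and bitter taste receptors, keratin-associated proteins and beta-defensins) was used, 6.41. Above it were 54 of the 55 (98.2%), against 56.5% of all genes, and the exception was the pseudogene SNRPD2P2. Only 9 members were under 8, whereas 24 were at 10 or more and 8 above 11.

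**Figure D2:**
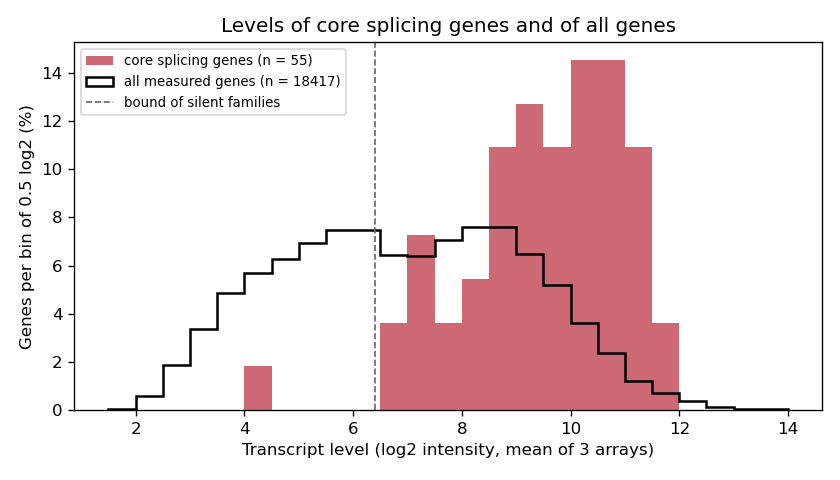
Share of genes (y axis, percent per bin of 0.5 log2) at each mean log2 intensity (x axis) for the 55 core splicing genes (filled) and all 18417 measured genes (outline), with the bound of silent families at 6.41 dashed. The median of the core splicing genes is 9.82, against 6.91 for all genes, and the single bar below the bound is SNRPD2P2.

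The Sm ring proteins, which are present in equal copies in the ring of each spliceosomal Sm-class snRNP, did not have equal signals. SNRPD3 had the highest level of the 7 genes, with 10.84, 10.79 and 10.83 on arrays 1, 2 and 3 (10.82 ± 0.025). SNRPB (10.59) and SNRPD2 (10.38) were also in the highest decile. SNRPD1 (9.18), SNRPG (8.81) and SNRPF (8.75) were lower, with SNRPE lowest at 8.21, 7.88 and 8.11 (8.07 ± 0.165). The median of the class was 9.18, and its range of levels was far wider than the difference between cultures of any member. The low values of SNRPE and SNRPG rested on averaging unlike probe sets. More than 1 probe set was present for 5 of the 55 genes (9.09%, against 4.18% of all genes), and in 3 of the 5 they lay over 1 log2 apart (60%, against 35.5% of all genes with more than 1). For SNRPE the higher probe set gave 9.95, 9.69 and 9.73 (9.79 ± 0.142) and the other 6.46, 6.08 and 6.49 (6.34 ± 0.227), a gap of 3.45 or 10.9-fold. For SNRPG they gave 9.77, 9.91 and 9.72 (9.80 ± 0.10) and 7.60, 7.93 and 7.95 (7.83 ± 0.196), a gap of 1.97 or 3.91-fold. With the higher probe set of each gene, SNRPE and SNRPG moved up to decile 9, the median of the class became 9.80 and its lowest gene was SNRPF at 8.75. RefSeq names 11 pseudogenes of SNRPE and 20 of SNRPG. At least 1 pseudogene carried the name of the gene for 19 of the 55 (34.5%, against 11.2% of all genes), 81 in all. The positions of the probe sets were not used here, so signal from a gene and from its copies cannot be told apart. SNRPN, a tissue-restricted relative of SNRPB, was outside the naming rule. Its probe set, which it shared with SNURF, gave 9.06, 9.24 and 9.16 (9.15 ± 0.088).

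**Figure D3:**
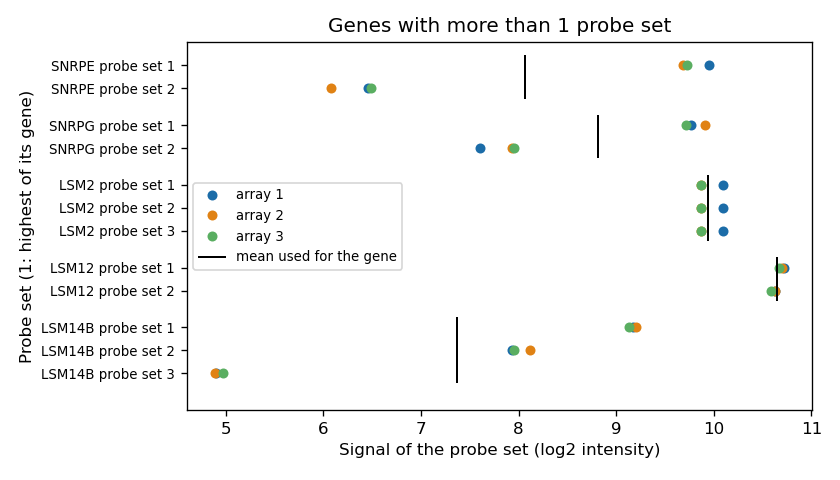
Log2 intensity (x axis) of each probe set (rows) of the 5 core splicing genes with more than 1 probe set, on the 3 arrays (colours), with a vertical line at the gene level used. Probe sets of SNRPE, SNRPG and LSM14B lie more than 1 log2 apart, whereas those of LSM2 are identical and those of LSM12 differ by 0.080.

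All 3 proteins particular to U1 snRNP, which pairs with the start of the intron, were in the highest decile. SNRNP70, which binds a stem-loop of U1 RNA, had 11.13, 11.11 and 11.11 (11.12 ± 0.012). SNRPA (10.38), which binds another stem-loop, and SNRPC (10.09), which stabilises pairing with the splice site, followed. The U1-associated PRPF39 (8.13) and PRPF40B (7.78), relatives of yeast U1 proteins, were lower. PRPF40B had 7.74, 7.80 and 7.81 (7.78 ± 0.041).

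The U2 class held the highest and nearly the lowest of all 54 protein-coding genes. SF3B3, a scaffold of the SF3B complex, had 11.84, 11.94 and 11.89 (11.89 ± 0.047) and was the highest of the 55. SF3B1, which grips the branch point helix and is recurrently mutated in myelodysplastic syndromes, had 11.16 and SF3B2 11.08. The small subunits of SF3B were lower, at 9.87 for SF3B6, which contacts the branch point adenosine, 9.51 for SF3B5 and 8.51 for SF3B4. The 6 SF3B genes therefore spanned 3.38 log2 units with a median of 10.48. The SF3A genes, whose products join SF3B to U2, spanned 1.44, from 10.89 for SF3A3 down to 9.98 for SF3A1 and 9.45 for SF3A2. The pair of proteins that bind the U2 RNA itself also differed. SNRPB2 had 10.10 and its partner SNRPA1 had 6.51, 7.19 and 6.78 (6.83 ± 0.341), which is 3.27 lower. SNRPA1 was covered by 1 probe set that the annotation ties to 1 transcript accession, whereas the median for the probe sets of the 55 genes was 5. In all, 4 of these probe sets had 1 accession, the others being the lower of SNRPG, the lowest of LSM14B and that of SNRPD2P2. On array 1 SNRPA1 lay only just above the silent-family bound of 6.41.

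The U2AF factors recognise the end of the intron before U2 arrives. U2AF1, which reads the AG dinucleotide, had 10.78, 10.80 and 10.72 (10.77 ± 0.038). U2AF2, which binds the polypyrimidine tract, had 10.41 with the smallest spread of all 55 genes (SD 0.0081). U2AF1L4 was lower by more than 2 log2 units, at 7.91, 8.09 and 7.94 (7.98 ± 0.094).

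The U4/U6 and U5 proteins formed the most evenly high class: all 10 were in the top level class and 6 in the highest decile, with a median of 10.47. The 4 proteins of U5 snRNP within the naming rule were all in the highest decile. PRPF8, which cradles the catalytic centre, had 11.56, 11.63 and 11.55 (11.58 ± 0.040) and was the next after SF3B3. SNRNP200, the helicase that unwinds U4 from U6, had 11.04, PRPF6, the bridge of the tri-snRNP, 10.61 and SNRNP40 10.47. The U4/U6 proteins PRPF4 (11.02), PRPF31 (9.81) and PRPF3 (9.42) spread over 1.60 log2 units. PRPF31, PRPF3, PRPF6, PRPF8, PRPF4 and SNRNP200 are known as genes of inherited retinitis pigmentosa, and PRPF3 was the lowest of these 6. PRPF38A, needed for activation of the spliceosome, had 10.48 and its relative PRPF38B 9.44. The lowest gene of the class was the tri-snRNP protein SNRNP27, with 9.49, 9.34 and 9.38 (9.40 ± 0.082).

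The 3 genes of the minor spliceosome differed widely. SNRNP25 had 10.24, 10.17 and 10.20 (10.20 ± 0.039), SNRNP48 had 8.85 and SNRNP35 had 6.43, 6.50 and 6.61 (6.51 ± 0.090). The last was the lowest protein-coding gene of the 55 and stood just above the bound of 6.41. PRPF19, a ubiquitin ligase of the complex that acts when the catalytic centre forms, had 10.51, 10.58 and 10.498 (10.53 ± 0.042). PRPF18, which acts at exon ligation, had 8.32, 8.41 and 8.48 (8.41 ± 0.079).

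The LSm genes also differed widely. LSM2 to LSM7 are shared between the nuclear U6 ring and the cytoplasmic decay ring, and their levels ran over 4.20 log2 units. LSM4 had 11.28, 11.17 and 11.20 (11.22 ± 0.061), the third of the 55 in level. LSM2 (9.94), LSM7 (9.82) and LSM3 (9.48) were intermediate. LSM5 (7.47) was low, and LSM6 lowest at 6.90, 7.05 and 7.10 (7.02 ± 0.107). LSM1, which marks the decay ring, had 9.19 and LSM8, which marks the U6 ring, 8.66. Of the U7 components, LSM10 had 8.47, 8.51 and 8.70 (8.56 ± 0.125) and LSM11 7.35, 7.31 and 7.34 (7.34 ± 0.023). LSM14A, a protein of cytoplasmic P-bodies, had 10.997, 10.91 and 10.90 (10.94 ± 0.052), and LSM12 had 10.65. The relative LSM14B had 7.34, 7.40 and 7.35 on the 3 arrays (mean 7.36), an average over probe sets at 9.17, 8.002 and 4.92 with a gap of 4.25 or 19.01-fold between the highest and the lowest. The pseudogene SNRPD2P2, with 4.43, 4.41 and 4.60 (4.48 ± 0.107), was the only member below the bound, 2.03 log2 under SNRNP35.

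Neighbours in the order of level were close. The median gap between successive genes was 0.059 log2. In 27 of the 54 neighbouring pairs the order was the same on all 3 arrays, and in the other 27 it was not. At the top, SF3B3 exceeded PRPF8 by a mean of 0.31 and PRPF8 exceeded LSM4 by a mean of 0.36, both with the same sign on every array. LSM4 and SF3B1 differed by 0.054 with an SD of 0.058 of the difference, so their order was not stable. The order of SNRPB2 and SNRPC (0.0091 apart) and of SNRPA and SNRPD2 (0.0064 apart) was likewise within the spread.

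Spread between the cultures was small. The median SD of the 55 genes was 0.054, against 0.084 over all genes and 0.044 over the highest decile of all genes. Set against genes of their own level, 29 of the 55 (52.7%) had an SD above the median of their decile, against 50% of all genes, a share near that background. An SD of at least 2 times that median was seen in 9 (16.4%, against 10.8%). Only SNRPA1 had an SD above 0.2 (1.82%, against 10.2%), 3.38 times the median of its decile. After it came SNRPE, whose values are given above, then LSM3 with 9.61, 9.51 and 9.33 (9.48 ± 0.138), LSM2 with 10.09, 9.87 and 9.87 (9.94 ± 0.126) and LSM10. The highest and lowest array differed by less than 0.2 in 45 genes (81.8%, against 61.8% of all genes). Array 1 gave the highest value of 29 members (52.7%, against 39.2% of all genes and 45.5% of the highest decile), array 2 of 16 (29.1%, against 32.5%) and array 3 of 10 (18.2%, against 28.3%). Array 3 gave the lowest value of 25 (45.5%, against 32.5%). The median of the members was 9.90, 9.77 and 9.80 on arrays 1, 2 and 3, and Pearson's r between arrays over the 55 genes was 0.996 to 0.998, across genes, which are not independent replicates.

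**Figure D4:**
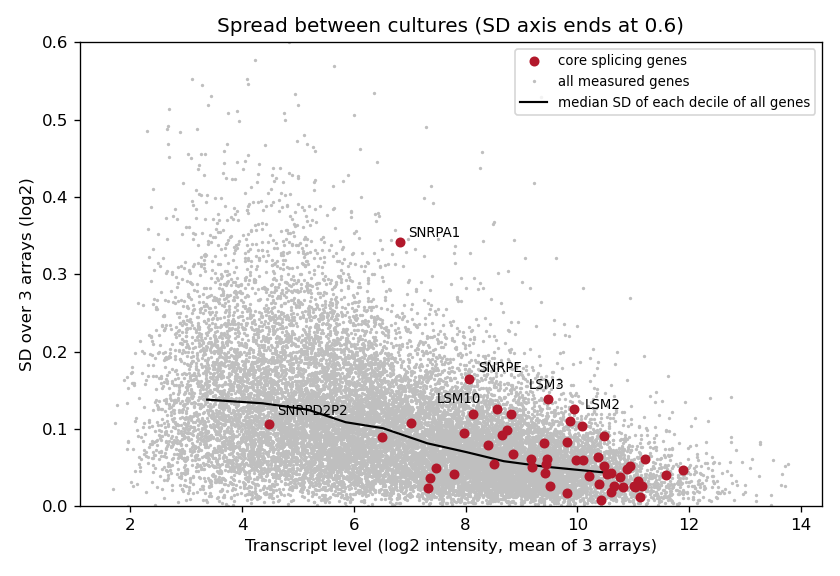
SD over the 3 arrays (y axis, log2) against mean log2 intensity (x axis) for the 55 core splicing genes (red) and all measured genes (grey), with the median SD of each decile as a line. SNRPA1 stands apart at 0.341, and 12 genes above 0.6 lie outside the axis.

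Other genes of the splicing pathway, listed from textbook knowledge, were also mostly high. Of 60 measured, 54 were in the top level class and 17 in the highest decile, with a median of 9.56. All 9 further tri-snRNP genes were in the top level class, between EFTUD2, the GTPase of U5 (11.04), and SART1 (9.59). So were all 9 genes of U2 and the branch point, between DHX15, a helicase that dismantles spliceosomes (11.27), and RBM17 (8.90). Of 20 genes of activation and catalysis, 19 were in the top level class, with PLRG1 highest (10.89) and CWC15 lowest (7.14). Of 17 genes of snRNP assembly 14 were, with PRMT5, the methyltransferase that modifies Sm proteins, highest (11.42) and GEMIN2, a partner of SMN, lowest (7.46). The 5 further genes of the minor spliceosome ran down to RNPC3, which links U11 and U12 and had 5.98 ± 0.194, below the bound, with ZCRB1 highest at 10.27. The level of RNPC3 is an average over probe sets, whose separate values are not given here. With SNRNP35, the lowest levels of both sets of protein-coding genes, as averaged here, therefore belonged to the minor spliceosome.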

How the data were processed

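Total RNA of 3 C33A cultures was hybridised to Affymetrix human Gene ST arrays, 1 per culture. The deposited values are log2 intensities, which the authors background-corrected, normalized and summarized per probe set with the Robust Multichip Average (RMA) and processed further with oneChannelGUI; the versions were not stated in the sources used. RMA brings the arrays to a common distribution, which removes differences in total signal. Of 33297 probe sets, 19460 had 1 gene symbol in the platform annotation, 1754 had several (used only as an alternative) and 12083 had none listed. Probe sets of 1 symbol were averaged per gene. Gene names were updated through RefSeq (GRCh38.p14), which matched 18392 of 18417 genes. The means, SDs, deciles and motif searches were computed with Python 3.11.15, NumPy 2.4.6 and pandas 2.3.3. The means, SDs and deciles were checked on simulated data, whereas the motif searches were not. The number of arrays, 3, limits the precision, and there is no detection call. The 3 cultures form 1 group, so no conditions could be compared, and levels of different genes were not tested against each other because their probe sets differ in sequence. Scan batches were not analysed here.

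Values per array are given for the highest and lowest gene of each class, the 5 of largest SD, genes below the bound and genes with probe sets over 1 log2 apart, and only the extremes are named in the other lists. A planned rule on paralogous proteins was not run, since protein sequences were not used here. The genes, classes, lists and alternatives were chosen with earlier results of these data known.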

Additional observations from a re-analysis of the deposited data

How the results depend on the processing

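Each summary of the core splicing genes was recomputed with 1 array left out, with the highest probe set of a gene, with genes of 1 probe set, after centring or quantile normalization, above the silent-family bound, with updated symbols, with probe sets of several symbols and, as a choice made after seeing the data, without SNRPD2P2. The number in the highest decile ran over 21 to 28, and in the top level class over 37 to 46, in both cases lowest when only genes above the bound were ranked. The number above the bound was 47 with the 99th percentile of the silent families, 49 with genes of 1 probe set, of which there were fewer, and 52 to 54 otherwise. Where only genes above the bound were ranked, this number was fixed at 54 by construction and was no check. Of 68 values over 6 results, 67 stayed within the spread or within 1.5 times the main count. The exception was the median SD, 0.037 without array 1 (range without 1 array 0.0368 to 0.0630), and the cause was not tested. Its spread was taken from these same values without 1 array. The 1.5-fold margin could not flag a rise in the counts of the top level class or above the bound, because its limit exceeds the number of genes. Of 96 values for 24 named genes, 3 moved, all with the highest probe set: SNRPE to 9.79, SNRPG to 9.80 and LSM14B to 9.17. Only these 3 could move, since the other named genes had 1 probe set or identical ones. Leaving out 1 array of 3 cannot move a mean by more than its SD, so those values were no check. The largest such move was 0.182. No paired analysis was possible because the 3 cultures form a single group. Besides SNRPD2P2, the genes at or below the bound with the 99th percentile, 7.88, were SNRNP35, SNRPA1, LSM6, LSM11, LSM14B, LSM5 and PRPF40B. These genes lay above the main bound of 6.41, from 6.51 for SNRNP35 to 7.78 for PRPF40B, but not above the highest silent-family genes. For LSM14B this holds for the average only, since its highest probe set, at 9.17, was above both bounds.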

Other observations

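The RNA components of the snRNPs, which were added after their values had been seen, gave uneven signals. U2 RNA (RNU2-1) had 10.72, 10.96 and 10.81 on arrays 1, 2 and 3 (10.83 ± 0.122) over 11 probe sets, and 3 probe sets that carry several U1 gene names had means of 10.74, 10.74 and 10.82. Of the U5 genes, RNU5E-1 had 9.72 ± 0.080 and RNU5D-1 9.01 ± 0.290, whereas RNU5A-1 (3.94), RNU5F-1 (3.66) and RNU5B-1 (3.12) lay below the silent-family bound. RNU4-1 had 7.10 ± 0.161 and RNU4-2 3.76 ± 0.081. Among the RNAs of the minor spliceosome, RNU4ATAC had 6.89, RNU12 6.50, and RNU6ATAC and RNU11 5.89 each. The labelling of such short, structured RNAs on this platform was not assessed here, so these values are not set against those of the protein genes.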
